A study of Mus musculus with 14 samples.

Results

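Toll-like receptors (TLRs) sense microbial molecules, and hematopoietic progenitors as well as mature myeloid cells carry them. TLR1, TLR2, TLR4, TLR5 and TLR6 sit at the cell surface, whereas TLR3, TLR7, TLR8 and TLR9 read nucleic acids in endosomes. All of these receptors except TLR3 signal through the adaptor MyD88, which the receptors of interleukin-1 and interleukin-18 use too. The family was taken as 10 named genes, Tlr1 to Tlr9 and Myd88, and 9 of them (8 receptors and the adaptor) were among the 19155 genes that could be tested. Each of the 9 had 1 probe set, so a rule by which the probe set would be chosen by its highest mean value had nothing to decide. The genes themselves were chosen by name, with earlier results of these data, that of Tlr6 among them, already known. Tlr5 was not analysed here.

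RNA was taken from multipotent progenitors (MPP) of wild-type C57BL/6 mouse bone marrow, 20000 cells per array, amplified and hybridized to Affymetrix Mouse Gene ST 1.0 arrays. Both populations were sorted as Lin-/cKit+/Sca-1+. Lymphoid-biased MPP4 carried Flk2, whereas myeloid-biased MPP3 were CD48+ without Flk2. The series' design text gives MPP3 as CD150-, while the study's methods print them as CD150+. Mice were 8 to 10 weeks old in the young groups and 24 months old in the old ones. The young groups had 3 arrays (MPP3) and 5 arrays (MPP4), and the old groups 3 each. The study's methods call the arrays of a population independent biological replicates, without saying which mice each came from. In sorted bulk samples, fewer cells that carry a transcript and less of it per cell cannot be told apart.

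A normalized value here is the negative natural logarithm of a rank share, that is, of how large a part of the ranked probe sets lay at or above it on the same array. It is a rank, so comparisons are given as differences in normalized value and never as folds, and no member's level is set against another's. The middle of the scale is 0.693, and the 10% of probe sets that are brightest begin at 2.30. By mean over all 14 arrays, Tlr1, Tlr3, Tlr7 and Tlr8 were in the dimmest 33.3% of genes (below 0.426), which makes 4 of the 9 members. Whether probe sets this dim stood above background was not tested. Tlr4, Tlr6 and Tlr9 had means between that limit and the middle of the scale. The mean of Tlr6 (0.436) was just above the limit, and its young group means (0.297 in MPP3 and 0.391 in MPP4) were below it. Whether Tlr6 stood above background was not tested either. The means of Tlr2 (1.21, with 29.8% of ranked probe sets at or above) and Myd88 (1.29, with 27.5%) were above the middle.

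The sorted identity was read from Flt3, which encodes Flk2, with values of 1.42 to 2.20 on the 6 MPP3 arrays and 2.77 to 3.53 on the 8 MPP4 arrays. Slamf1, the gene of CD150, stayed at or below 0.251 on every array. By their dimmest probe sets the arrays fell into 2 sets that no label describes. Set 1 took in the 6 old arrays with 3 young ones, namely MPP3 replicate 1 and MPP4 replicates 1 and 2, and set 2 the other 5 young arrays. The young arrays belong also to an earlier series, so series and age cannot be told apart. Xist, expressed from the inactive X chromosome of females, was above 1 on 4 of the young arrays (MPP4 replicates 1, 4 and 5 and MPP3 replicate 1) and on no old array. The Y-linked gene Eif2s3y was at 0.0221 on young MPP3 replicate 1 and 0.0261 on young MPP4 replicate 1. On young MPP4 replicates 4 and 5 it was at 0.855 and 1.89, so Xist above 1 does not mark arrays of females alone.

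Tlr6 is the member on which the age comparisons turn, and its upstream sequence is shown for that reason, with that of Myd88, the adaptor the family shares. Motifs for 5 families of transcription factors were searched, on both strands. RefSeq windows of 250 bases before a listed transcript start (GRCm38.p6) were at hand for 8 of the 10 named genes, 10 windows in all, and both windows listed for Tlr6 are printed. Both of these lie inside the span that RefSeq gives the Tlr6 gene, downstream of its outermost start. Capitals mark matches to the core of an interferon-stimulated response element, GAAANNGAA. Sequences read 5′ to 3′ toward the gene, on the minus strand of chr5:64959167-64959416, chr5:64960049-64960298 and chr9:119340019-119340268.
Tlr6 window 1: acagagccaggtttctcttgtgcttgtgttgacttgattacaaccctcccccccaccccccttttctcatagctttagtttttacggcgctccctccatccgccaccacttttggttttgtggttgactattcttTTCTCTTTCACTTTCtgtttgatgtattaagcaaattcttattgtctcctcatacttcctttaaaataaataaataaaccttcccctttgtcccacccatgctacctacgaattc
Tlr6 window 2: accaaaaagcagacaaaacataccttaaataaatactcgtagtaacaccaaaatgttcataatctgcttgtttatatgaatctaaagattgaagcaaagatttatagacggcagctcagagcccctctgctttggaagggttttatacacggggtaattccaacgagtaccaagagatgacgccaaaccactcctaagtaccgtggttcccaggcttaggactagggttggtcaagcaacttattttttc
Myd88: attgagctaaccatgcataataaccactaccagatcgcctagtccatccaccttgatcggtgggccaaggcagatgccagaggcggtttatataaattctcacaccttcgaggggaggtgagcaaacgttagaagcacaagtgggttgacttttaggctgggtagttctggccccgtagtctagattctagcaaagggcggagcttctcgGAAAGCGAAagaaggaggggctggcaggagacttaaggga
In the first Tlr6 window a pair of matches overlap, at -115 to -107 and -109 to -101 from the start, both on the opposite strand. Myd88 has a single match at -40 to -32, and Tlr8 one at -67 to -59. The letters occur in 7.13% of all 32851 windows of this length. An NF-kB type element, GGGANNTTC (3.23% of windows), was present at Tlr2 and Tlr3. Among the 8 genes a PU.1-type element, GAGGAAGT (2.44%), was at Tlr1 alone, and an AP-1 element, TGANTCA (6.75%), at Tlr9 alone. A C/EBP element, TTNNGCAA (9.56%), was present at Tlr3, Tlr6 and Tlr8. Matches to letters are a description of the sequence, and no binding was measured.

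The first question was whether the receptors differ with age within each progenitor population. Tlr6 was higher on every old array than on every young array of both populations, and Tlr1 was higher in old MPP3 alone, Tlr3 in old MPP4 alone, without overlap of the groups. The other 6 members overlapped between ages in both populations. No member passed limma's threshold (adjusted p under 0.05) in either population, where 0% of all genes passed, and a SAM-type statistic called 0 members too. At an unadjusted p under 0.05 were 2 of the 9 members in MPP3, where 8.19% of all genes were, and 2 of 9 in MPP4, where 9.77% were. Groups did not overlap for 2 of 9 members in MPP3 (background 14.2%) and for 2 of 9 in MPP4 (background 7.29%). With so few members, 2 is a small count to read against these shares.

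**Figure D1:**
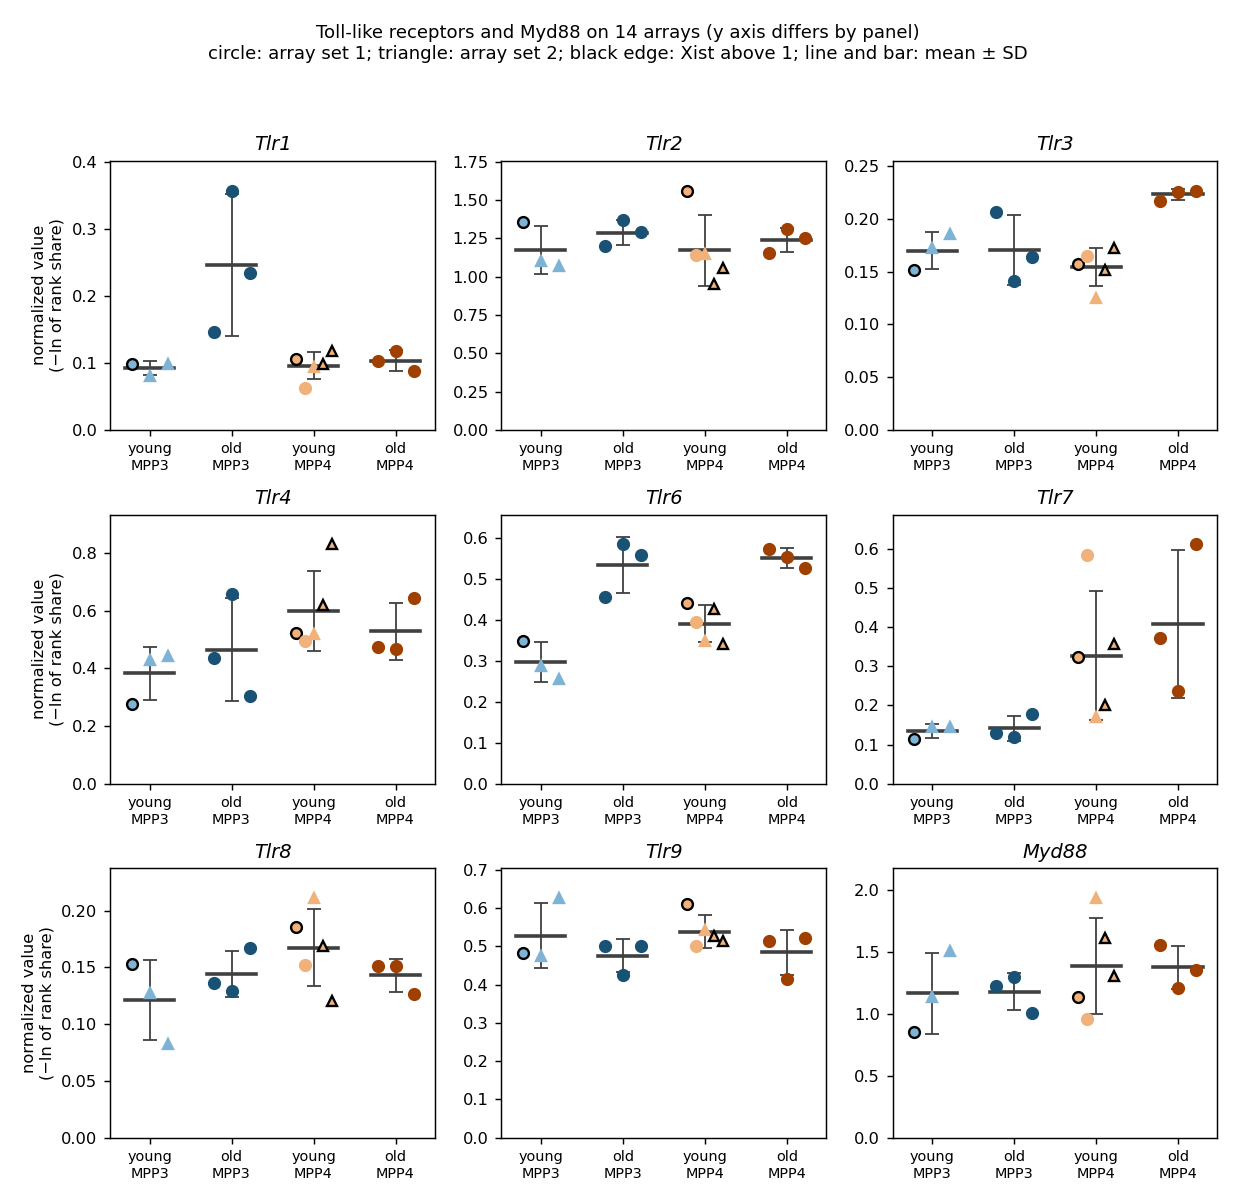
Normalized value (negative natural logarithm of the rank share, y axis from 0, scale differing by panel) of the 9 measured members in the 4 groups. Each point is an array (circle for array set 1, triangle for set 2, black edge where Xist was above 1), lines are group means and bars 1 SD. Tlr6 was at 0.456 to 0.584 on the old arrays and 0.255 to 0.442 on the young ones.

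Among the receptors that pair with TLR2, Tlr6 encodes the partner for recognition of diacylated lipopeptides. Its values were 0.349, 0.288 and 0.255 in young MPP3 and 0.456, 0.584 and 0.560 in old MPP3. In young MPP4 they were 0.442, 0.396, 0.348, 0.427 and 0.341, and in old MPP4 0.574, 0.553 and 0.526. The lowest old array (0.456, MPP3) was above the highest young one (0.442, MPP4), which held for 45 of the 19155 genes (0.235%), Tlr6 included. Within each population the gap between the nearest old and young arrays was wider, 0.107 in MPP3 and 0.0838 in MPP4. Without overlap in both populations, 87 genes (0.454%) were higher in old.

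The age difference of Tlr6 was 0.236 ± 0.0471 (SE) in MPP3 (limma, adjusted p = 0.471) and 0.160 ± 0.0296 in MPP4 (limma, adjusted p = 0.290). The difference between them, -0.0755 ± 0.0531, did not pass (limma, adjusted p = 0.880). A contrast added with the values of Tlr6 known, the mean of both age differences in 1 fit of all groups, gave 0.198 ± 0.0266 (limma, adjusted p = 0.0337). That p is no independent support, because the contrast was chosen for its result. Tlr6 was the 1 member among the 8 genes called there (0.0418% of all genes), of which 2 were higher and 6 lower in old. At an unadjusted p under 0.05 were 3 of 9 members (Tlr1, Tlr3 and Tlr6, background 13.6%). The call was lost without each of young MPP3 replicates 2 and 3, young MPP4 replicates 3, 4 and 5 and old MPP4 replicates 1, 2 and 3, when adjusted p ran up to 0.150. It was kept without each of the other 6 arrays. The call was lost also with array set as a term, in array set 1 only, with the replicate block, without the dimmest 33.3% of genes and on arrays with Xist under 1. Over 25 alternatives adjusted p ran up to 0.192, and 12 passed.

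The 3 young arrays of set 1 had Tlr6 at 0.349 to 0.442 and the 5 of set 2 at 0.255 to 0.427. Every old array is in set 1 and lay above every young array, so the lack of overlap within set 1 was given in advance. The differences there were 0.184 in MPP3, where 1 young array remained, and 0.132 ± 0.0273 in MPP4, where 2 remained. Between the populations Tlr6 was 0.0933 ± 0.0344 higher in young MPP4 than in young MPP3 (limma, adjusted p = 0.385), with overlap. In old mice the populations differed by 0.0178 ± 0.0404. The order of group means was thus young MPP3, young MPP4, old MPP3 and old MPP4, and the last pair differed by less than the spread between arrays.

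Tlr1, the neighbour of Tlr6 on chromosome 5, encodes the partner of TLR2 for triacylated lipopeptides. Its values were 0.0979, 0.0804 and 0.0986 in young MPP3 and 0.146, 0.357 and 0.234 in old MPP3. Young MPP4 ran from 0.0632 to 0.117 with a median of 0.0988, and old MPP4 was at 0.103, 0.118 and 0.0873. Old MPP3 stood above the other 3 groups, which overlapped one another. The age difference was 0.154 ± 0.0577 in MPP3 (limma, adjusted p = 0.591) and 0.00743 ± 0.0185 in MPP4, and old MPP4 differed from old MPP3 by -0.143 ± 0.0566 (limma, adjusted p = 0.509). The difference of the age differences was -0.146 ± 0.0546 (limma, adjusted p = 0.736). Without old MPP3 replicate 2, the highest array, the MPP3 difference was 0.0979.

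Tlr2, the shared partner, was at 1.35, 1.10 and 1.07 in young MPP3 and 1.20, 1.37 and 1.29 in old MPP3. In young MPP4 it was at 1.56, 1.14, 1.15, 0.952 and 1.05, and in old MPP4 at 1.15, 1.31 and 1.25. All 4 groups overlapped, with age differences of 0.112 ± 0.0914 in MPP3 and 0.0661 ± 0.130 in MPP4. The young arrays of set 1 were at 1.14 to 1.56 and those of set 2 at 0.952 to 1.15, which overlapped, and the old arrays were at 1.15 to 1.37.

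Tlr4 encodes the receptor of bacterial lipopolysaccharide. Its values were 0.275, 0.428 and 0.444 in young MPP3, 0.435, 0.656 and 0.304 in old MPP3, and 0.475, 0.466 and 0.642 in old MPP4. Young MPP4 had 0.522, 0.495, 0.519, 0.621 and 0.829, each above every young MPP3 array. That difference of 0.215 ± 0.0841 did not pass (limma, adjusted p = 0.414). The age differences had opposite signs, 0.0827 ± 0.103 in MPP3 and -0.0697 ± 0.0848 in MPP4, with overlap in both, and the difference between them was -0.152 ± 0.138. Old MPP3 spread over more of the scale than the distance between any neighbouring group means.

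Of the endosomal receptors, Tlr3 recognizes double-stranded RNA. Old MPP4 was at 0.217, 0.225 and 0.227, above young MPP4 (0.157, 0.164, 0.125, 0.151 and 0.173). Young MPP3 was at 0.151, 0.172 and 0.186, and old MPP3 at 0.206, 0.141 and 0.163. Old MPP4 did not overlap with any other group, and the other 3 overlapped. The age difference in MPP4 was 0.0691 ± 0.0170 (limma, adjusted p = 0.355) and in MPP3 0.000518 ± 0.0288, with a difference between them of 0.0686 ± 0.0283 (limma, adjusted p = 0.782). Old MPP4 differed from old MPP3 by 0.0530 ± 0.0243 (limma, adjusted p = 0.568). All of these values are in the dim range of the arrays.

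Tlr7, a receptor of single-stranded RNA, was the member that divided the populations at both ages. It was at 0.113, 0.145 and 0.145 in young MPP3 and 0.129, 0.118 and 0.178 in old MPP3. In young MPP4 it was at 0.323, 0.584, 0.170, 0.200 and 0.357, and in old MPP4 at 0.373, 0.237 and 0.610. MPP4 was above MPP3 without overlap within each age, as for 164 of all genes (0.856%), although young MPP4 replicate 3 (0.170) lay below old MPP3 replicate 3 (0.178). The difference was 0.193 ± 0.0901 in young mice (limma, adjusted p = 0.505) and 0.265 ± 0.0980 in old mice (limma, adjusted p = 0.488). MPP4 arrays of 1 group differed from each other by more than the populations did, while the MPP3 arrays all lay within 0.113 to 0.178. Age differences were 0.00724 ± 0.0285 in MPP3 and 0.0798 ± 0.115 in MPP4.

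Tlr8, next to Tlr7 on the X chromosome, did not divide the groups. Its values lay between 0.0829 and 0.211 over all 14 arrays, and between any pair of groups compared its difference was at most 0.0464 ± 0.0279, in young MPP4 against young MPP3. The 4 young arrays with Xist above 1 had Tlr7 at 0.113 to 0.357 and Tlr8 at 0.120 to 0.186, and the other 4 had Tlr7 at 0.145 to 0.584 and Tlr8 at 0.0829 to 0.211, so for both genes the ranges overlapped. Tlr9, the receptor of unmethylated CpG DNA, was at 0.475 to 0.626 on the 8 young arrays and 0.416 to 0.523 on the 6 old ones. Its age differences were both negative, -0.0520 ± 0.0525 in MPP3 and -0.0546 ± 0.0352 in MPP4, and in both the groups overlapped.

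Myd88 varied more among the young arrays than between groups. It was at 0.851, 1.14 and 1.502 in young MPP3, 1.13, 0.959, 1.93, 1.61 and 1.31 in young MPP4, 1.23, 1.29 and 1.01 in old MPP3 and 1.56, 1.21 and 1.35 in old MPP4. The 3 young arrays of set 1 were the lowest of the 8 (0.851 to 1.13), and the 5 of set 2 were at 1.14 to 1.93. Age differences were 0.0131 ± 0.182 in MPP3 and -0.0153 ± 0.219 in MPP4, and MPP4 was above MPP3 by 0.225 ± 0.243 in young and 0.196 ± 0.118 in old mice. None passed, and with errors of this size a difference in Myd88 of 0.2 was not detectable here.

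The second question was how the populations differ at one age. No member passed in young mice, where limma called 25 genes (0.131%), or in old mice, where it called 0%. At an unadjusted p under 0.05 were 2 of 9 members in young mice (Tlr4 and Tlr6, background 11%) and 1 of 9 in old mice (Tlr7, background 9.83%). Groups did not overlap for 2 of 9 members in young mice (Tlr4 and Tlr7, background 7.47%) and 3 of 9 in old mice (Tlr1, Tlr3 and Tlr7, background 16.6%). For the difference between the age differences, no member passed (0% of all genes), and 2 of 9, Tlr1 and Tlr3, had an unadjusted p under 0.05 (background 6.26%).

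**Figure D2:**
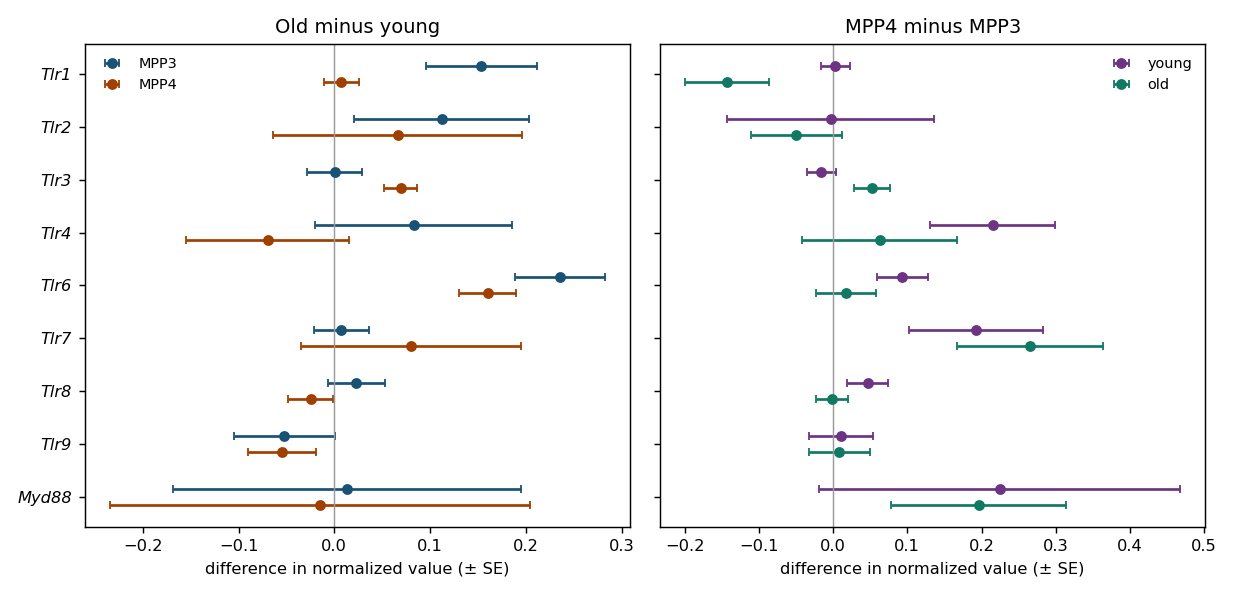
Differences in normalized value with their standard errors (x axis) for the 9 members, as old minus young within MPP3 and MPP4 (left) and as MPP4 minus MPP3 within young and old (right). Tlr6 had the largest age difference of the 9 in both populations, 0.236 in MPP3 and 0.160 in MPP4, and Myd88 had the widest errors.

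The rest of the pathway was followed in a list of 69 other genes, of which 61 were measured. None of the 61 passed limma's threshold in any of the 5 planned comparisons or in the mean of the age differences. In MPP3, 3 were higher and 2 lower with age at an unadjusted p under 0.05 (8.2% against 8.19% of all genes), and in MPP4 3 were higher and 1 lower (6.56% against 9.77%). The median age difference of the 61 was 0.0185 in MPP3 and 0.00462 in MPP4, beside 0.000183 and -0.000171 over all genes. Groups did not overlap for 8 of 61 in MPP3 (13.1% against 14.2% of all genes) and 3 of 61 in MPP4 (4.92% against 7.29%). Between the populations they did not overlap for 9 of 61 in young mice (14.8% against 7.47%) and 9 of 61 in old mice (14.8% against 16.6%). Of all genes, 50.1% had a positive age difference in MPP3 and 49.8% in MPP4, shares to set beside the counts below. Examples below were chosen after their values were seen, since the list gave no call.

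Of the 6 genes for folding and trafficking of TLRs, all had a positive age difference in MPP3 (median 0.178), and 5 of 6 in MPP4 (median 0.0740). Hsp90b1 encodes gp96, the endoplasmic reticulum chaperone that folds most TLRs, and was at 4.01 to 4.14 in young MPP3 and 4.36 to 4.38 in old MPP3. The groups did not overlap, with a difference of 0.297 ± 0.0410 (limma, adjusted p = 0.471). Its differences between MPP4 and MPP3 were -0.307 ± 0.109 in young (limma, adjusted p = 0.371) and -0.487 ± 0.0995 in old mice (limma, adjusted p = 0.311). Unc93b1, which escorts endosomal TLRs, overlapped between ages at 1.12 to 1.28 in young and 1.24 to 1.63 in old MPP3.

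Of the 6 ligand-binding co-receptors, 3 had a positive age difference in MPP3 and 5 in MPP4. In old mice 3 were higher and 3 lower in MPP4 than in MPP3 (median -0.0574). Without overlap, 2 were higher and 1 lower there (16.6% of all genes did not overlap, in either direction). The lower one was Cd14, at 0.264 to 0.518 in old MPP3 and 0.205 to 0.251 in old MPP4. Cd180, a TLR4 homologue of B lineage cells, was at 1.31 to 1.70 in old MPP3 and 2.09 to 2.31 in old MPP4, a difference of 0.682 ± 0.115 (limma, adjusted p = 0.239). Ly96, which encodes the lipopolysaccharide-binding partner of TLR4, was at 0.0620 to 0.325 in old MPP3 and 0.393 to 0.859 in old MPP4 (0.435 ± 0.141; limma, adjusted p = 0.426).

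Downstream of the receptors, 12 of 16 kinases and ubiquitin ligases had a positive age difference in MPP3 and 7 of 16 in MPP4. Their medians were 0.0778 and -0.0357. Of the transcription factors 2 of 10 were positive in each population, with medians of -0.0683 in MPP3 and -0.0666 in MPP4. Irf5, an interferon regulatory factor that acts downstream of MyD88, was at 0.873 to 1.06 in young MPP4 and 0.614 to 0.809 in old MPP4 (-0.251 ± 0.0566; limma, adjusted p = 0.323). Among 12 negative regulators 6 were positive with age in each population. Irak3, a kinase homologue that restrains MyD88 signalling, was at 1.75 to 2.04 in young MPP3 and 1.21 to 1.55 in young MPP4, the pathway gene closest to the threshold (-0.585 ± 0.0914; limma, adjusted p = 0.0854).

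**Figure D3:**
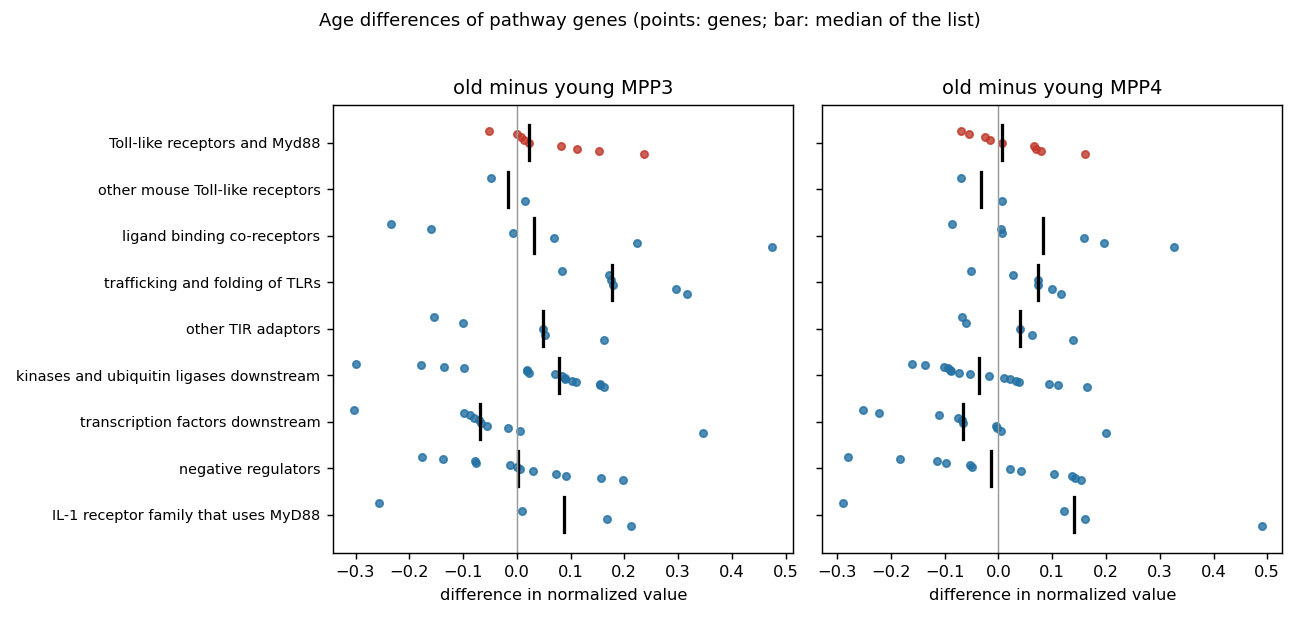
Age differences in normalized value (x axis) of the 9 members and of the 61 other pathway genes by list, in MPP3 (left) and MPP4 (right). Points are genes and bars list medians. All 6 folding and trafficking genes were above 0 in MPP3, and 8 of 10 transcription factors were below 0 in each population.

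Genes of other cell types moved along the same axes as some members. The summed value of 12 myeloid progenitor markers was 18.8 to 24.1 in young MPP3, 22.4 to 32.5 in old MPP3 and 15.8 to 16.2 in old MPP4, and in young MPP4 it was 15.3 ± 0.904 (SD, n = 5). Of these, 11 of 12 had a positive age difference in MPP3 and 7 of 12 in MPP4. Elane, the neutrophil elastase gene, was at 1.17 to 2.05 in young and 1.93 to 3.43 in old MPP3. Fcgr3, an Fc receptor, was at 0.693 to 0.873 in young and 1.27 to 1.85 in old MPP3. The sum of 11 mature neutrophil markers was 5.34 to 7.41 in young and 7.97 to 12.0 in old MPP3, without overlap, as for Tlr1 and Tlr6. Of these, 7 of 11 had a positive age difference in MPP3 and 4 a negative one (median 0.0264), and Retnlg was lower without overlap (0.0927 to 0.139 in young and 0.0762 to 0.0918 in old). S100a8, an alarmin of granulocytes, was at 0.846 to 1.93 in young and 2.31 to 3.63 in old MPP3, and Cxcr2, a chemokine receptor, at 0.226 to 0.476 and 0.575 to 1.15. In MPP4 the sum of the neutrophil markers was 3.21 to 4.67 in young and 3.42 to 4.88 in old mice, with overlap. Of the 12 myeloid progenitor markers, 1 was higher in old MPP4 without overlap, as Tlr6 was (7.29% of all genes did not overlap, in either direction). It was Ctsg, at 1.19 to 1.82 in young and 1.91 to 2.31 in old MPP4. The sum of 10 mast cell, basophil and eosinophil markers was 7.19 to 9.09 in young MPP3, 8.09 to 15.6 in old MPP3, 3.94 to 5.50 in young MPP4 and 5.06 to 5.52 in old MPP4. In MPP3, 8 of 10 had a positive age difference (median 0.362), 3 of them without overlap (14.2% of all genes did not overlap, in either direction). In MPP4, 8 of 10 were positive too (median 0.0441), 0 of them without overlap. In old mice all 10 were lower in MPP4 than in MPP3, 6 without overlap (16.6% of all genes, in either direction). The smallest unadjusted p in this list for age in MPP3 belonged to Epx, the eosinophil peroxidase gene (0.206 to 0.238 in young and 0.414 to 0.847 in old), and Prss34, which encodes a mast cell and basophil protease (0.662 to 0.744 and 0.794 to 1.14). The part of these 3 lists in the differences of Tlr1 and Tlr6 was not tested.

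Over 15 monocyte, macrophage and dendritic cell markers, the sum was 8.01 to 8.68 in young and 9.56 to 9.73 in old MPP3, and 8.15 to 9.01 in young and 8.75 to 9.60 in old MPP4. A positive age difference was found for 10 of 15 in MPP3 and 9 of 15 in MPP4. The defining macrophage marker Adgre1 (F4/80) was at 0.0945 to 0.140 in young and 0.168 to 0.213 in old MPP3, low on the scale in all groups. In MPP4 it was at 0.0882 to 0.138 in young and 0.143 to 0.161 in old mice. Every old array was thus above every young one for Adgre1, as for Tlr6 (0.235% of all genes). Ccr2, a chemokine receptor of monocytes, was at 0.148 to 0.492 in young and 0.454 to 1.01 in old MPP3. In MPP4, 4 of these 15 did not overlap between ages (26.7% against 7.29% of all genes), 3 higher and 1 lower in old. The dendritic cell markers Clec9a and Xcr1 led this list there. Clec9a (0.0826 to 0.110 in young and 0.172 to 0.236 in old), like Tlr3 and Tlr6, did not overlap. Xcr1 was at 0.123 to 0.253 and 0.246 to 0.319. Ccr2 (0.261 to 0.442 and 0.451 to 0.517) and Adgre1 were higher in old MPP4 without overlap too. Zbtb46, also a dendritic cell marker, was lower without overlap (0.367 to 0.461 in young and 0.296 to 0.346 in old). The part of these markers in the differences of Tlr3 and Tlr6 was not tested. For Tlr7, which plasmacytoid dendritic cells and B cells express, the sum of 7 plasmacytoid dendritic cell markers was 7.40 to 7.44 in young MPP3, 5.97 to 7.80 in old MPP3, 6.37 to 7.09 in young MPP4 and 6.62 to 7.32 in old MPP4. In that list 2 of 7 were higher and 5 lower in MPP4 than in MPP3, both in young and in old mice. Tcf4, a transcription factor of these cells, was at 1.83 to 1.91 in young MPP3 and 2.11 to 2.35 in young MPP4. Tcf4 was thus higher in MPP4 as Tlr7 was, and Ly6d was lower there (1.40 to 1.46 against 0.532 to 0.948). The sum of 10 B lineage markers was 6.05 to 11.6 in young MPP3, 5.96 to 12.0 in old MPP3, 5.59 to 10.5 in young MPP4 and 6.71 to 8.33 in old MPP4. Of these markers, 9 of 10 were lower in MPP4 than in MPP3 in young mice and 8 of 10 in old mice. Of all genes, 49.9% were higher in MPP4 in young mice and 48.3% in old mice. The part of these genes in the Tlr7 difference was not tested.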

How the data were processed

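Gene expression was measured on 14 arrays in 4 groups given by the labels. Each deposited value is a score: the authors ran RMA (the methods give an R release but no version of RMA itself) and mapped every array onto an exponential reference (lambda of 1). Of these values, 92.3% fell on a whole rank of 25307 within 0.01. They were used as deposited, without a filter on dim genes. Mapping by rank removes any overall shift of an array, and the number of arrays limits the precision.

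Of 22115 probe sets, 2135 were not in the annotation table and 744 had several symbols, and both kinds were left out. Where a gene had several probe sets (76 genes), that of highest mean was kept, which left 19155 genes. Medians per array were 0.662 to 0.675 and correlations between arrays 0.948 to 0.994.

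Groups were compared with limma 3.58.1 in R 4.3.3 (lmFit and eBayes, two-sided, Benjamini-Hochberg over all genes, threshold 0.05), using only the arrays of each pair of groups. The methods name SAM for young against old, and a SAM-type statistic was an alternative. The difference of age differences used all arrays. The mean age difference was added after the data were seen. Members, gene lists and tests were chosen with earlier results of these data known. All members are named, with pathway genes past the threshold (there were none) and the 2 leading genes of a marker list where they move with a member. For no member did the group means span 0.5, so no gene with a like pattern is named. The fits were tested on simulated normal noise with differences of 0.5 and 1 in 200 genes per comparison. At 0.5, 47% to 73% were recovered. Differences as small as those of the members, and the array sets, were not simulated. Alternatives were a filter on dim genes, every probe set, mean of probe sets, variance trend, array weights, 1 fit, replicate block, scalings, array set, Xist and each array left out.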

Additional observations from a re-analysis of the deposited data

How the results depend on the processing

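Of the member differences, Tlr6 kept its direction with age in both populations and in their mean under every alternative run. With every old array above every young one, leaving out arrays could not have turned it. Its adjusted p for the mean age difference ran from 0.00184 to 0.192 over 25 alternatives, 12 of which passed. In that mean the members called went from 1 to 0 without the dimmest 33.3% of genes, with the replicate block, in array set 1 only, with array set as a term and on arrays with Xist under 1, and to 2 with array weights (Tlr6 and Tlr3). Array weights called 1 member, Tlr6, in old against young MPP4. Of all 19155 genes, those weights called 4384 for the mean and 304 in MPP4, so such calls were not particular to the members. Leaving out single arrays gave 0 to 1 members for the mean and 0 in each planned comparison. Of 17 member differences (those of Tlr6, those without overlap and those with an unadjusted p under 0.05), 1 changed direction, that of Tlr6 between the old populations, which was -0.0210 without old MPP3 replicate 1 (range -0.0210 to 0.0433). Of the other 37 member differences 28 changed direction under some alternative, and none passed. Apart from those of Tlr6, the 17 were picked for separation or a small p on these same arrays. The contrast with the other 37 is therefore no test of how steady they are. Between arrays of the same replicate number, correlations of deviations ran from -0.192 to 0.407, so the numbers gave no steady pairing. The highest was between young MPP3 and young MPP4 replicate 1, both in array set 1 and with Xist above 1. Whether these 2 arrays share mice is not stated. With the replicate block no member and 0 pathway genes were called.

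All genes called for old against young MPP3 (0) were 9 in 1 fit of all groups, 1 in array set 1 only and 1 with array set as a term. For old against young MPP4 (0) they were 304 with array weights, 1 in 1 fit and 21 with the SAM-type statistic. For MPP4 against MPP3 in old mice (0) they were 1 without the dimmest 33.3%, 27 in 1 fit, 2 with normal scores and 142 with the SAM-type statistic. In young mice (25) they were 59 without the dimmest 33.3%, 51 over every probe set, 48 with variance trend, 1808 with array weights, 0 with the replicate block, 51 with normal scores, 208 with the SAM-type statistic, 0 in set 1 only, 1492 in set 2 only, 271 with array set as a term and 0 on arrays with Xist under 1. For the difference of age differences (0) they were 2 with variance trend and 574 with array weights. For the mean age difference (8) they were 2 without the dimmest 33.3%, 4 with variance trend, 4384 with array weights, 1 with the replicate block, 3 with normal scores, 0 in set 1 only, 22 with array set as a term and 3 on arrays with Xist under 1. Leaving out single arrays gave 0 to 15 for age in MPP4, 8 to 108 and 0 to 3 between populations in young and old, 0 to 10 for the difference of age differences and 1 to 119 for the mean. Pathway genes called (0 in each) were 3 in old mice between populations with the SAM-type statistic, 2 with it in young mice, and there 1 without the dimmest 33.3%, 10 with array weights, 7 in set 2 only, 1 with array set as a term and 0 to 1 with single arrays left out. With array weights they were 2 for the difference of age differences and 13 for the mean. The cause of these changes was not tested. Signal over background was not measured.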
